A study of Mus musculus with 12 samples.

Results

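The comparison is of haematopoietic stem and progenitor cells that carry knockouts of both Tet2 and Traf6 with wild-type (WT) cells of the same kind. The cells were mouse bone marrow LSK cells, that is cells that lack lineage markers and carry Sca-1 and c-Kit on their surface. The series holds 12 RNA-seq libraries in 4 groups of 3: WT cells, cells labelled Tet2 KO, cells labelled Traf6 KO, and cells with both knockouts, whose label is Tet2;TRaf6 dKO. The last group is called dKO here, and 6 of the 12 libraries, WT and dKO, enter the main comparison. Genes were kept where the deposited value was 10 or more in 3 or more of those 6 libraries, which held for 13262 of the 37187 genes in the table. Age, sex, the Cre driver, the exons removed and any treatment are not given in the sources used here (sex-linked genes are read below), and the labels leave out whether each library had an animal of its own. The p-values therefore measure how far these libraries lie apart, and that spread may be technical.

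TET2 oxidises 5-methylcytosine in DNA, a step toward its removal, and its gene is often mutated in clonal haematopoiesis and myeloid leukaemia. TRAF6 is a ubiquitin ligase that carries signals from Toll-like and interleukin-1 receptors to NF-kB and MAP kinases. The title of the series links TRAF6 with MYC activity. MYC is a transcription factor that raises the expression of genes for ribosome production, nucleotide synthesis and growth. LSK cells hold the haematopoietic stem cells together with early multipotent progenitors, and their first myeloid descendants switch on the genes for neutrophil granule proteases.

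Against WT, dKO LSK cells had much more RNA for neutrophil granule proteins (Elane, Prtn3, Ctsg, Mpo) and for the immediate early transcription factors Fos, Fosb and Egr1. They also had more for the basophil and mast cell proteases Mcpt8 and Cma1, from a list whose members moved both ways. They had less RNA for the receptor Kit, for stem cell and platelet genes (Mecom, Tek, Vwf, Mmrn1) and for the interferon response genes Stat2 and Oas3. Other members of the stem cell and interferon lists rose. In library dKO 3 the medians of these 2 lists were not below the WT mean. Genes that carry the machinery of ribosomes, mitochondria and the proteasome were higher as groups, but by less once a trend with transcript length and GC content was removed. Their median log2 changes were 1.83, 1.80 and 1.39 (cytosolic ribosomal proteins, respiratory chain, proteasome), and 0.41, 0.44 and 0.40 without the trend. Myc RNA itself did not differ beyond the spread between libraries.

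A gene is said to have risen or fallen where limma, fitted to log2(value + 1) over all 12 libraries, gave a Benjamini-Hochberg adjusted p under 0.05 for dKO minus WT. By that rule 6812 of 13262 genes (51.4%) differed, of which 3101 rose (23.4%) and 3711 fell (28.0%), and 7723 had an unadjusted p under 0.05. Without WT library 2 or WT library 3, 2015 or 2053 genes rose. The median log2 change over all genes tested was -0.09. The shares 23.4% and 28.0% are the background over genes of all lengths. They do not suit a list of mostly short or mostly long genes, whose background is given by length in the next paragraph. A gene below 10 in every WT library could enter only through its dKO values, so the direction of its change was fixed by the filter. The same holds for a gene below 10 in every dKO library. In bulk RNA, fewer cells of a type and less RNA per cell cannot be told apart.

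The change followed transcript length. Of the 838 genes whose longest annotated transcript had at most 1000 nucleotides, 56.0% rose and the median log2 change was 1.63. Of the 2233 genes with transcripts above 1000 and up to 2000 nucleotides, 55.5% rose and 1.97% fell. Of the 1701 genes with transcripts over 6000 nucleotides, 63.6% fell and the median was -1.51. Among the lists below, median length was 704 nucleotides for histones, 1094 for cytosolic ribosomal proteins and 1186 for the respiratory chain. It was 6329 for adhesion, matrix and cilium and 6468 for polycomb, trithorax and remodelling genes. Counts as deposited in such lists are to be read against the shares for their length. The Spearman correlation between length and log2 change, across 12956 genes that are not independent replicates, was -0.646. Relative to the WT mean, the median of the shortest genes was 0.82, 1.22 and 2.94 in dKO libraries 1, 2 and 3, and that of the longest genes was -1.21, -1.73 and -1.50. A smaller shift of the longest genes was present in Tet2 KO libraries 2 and 3 (-0.75 and -0.68) and Traf6 KO library 2 (-0.57).

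**Figure D1:**
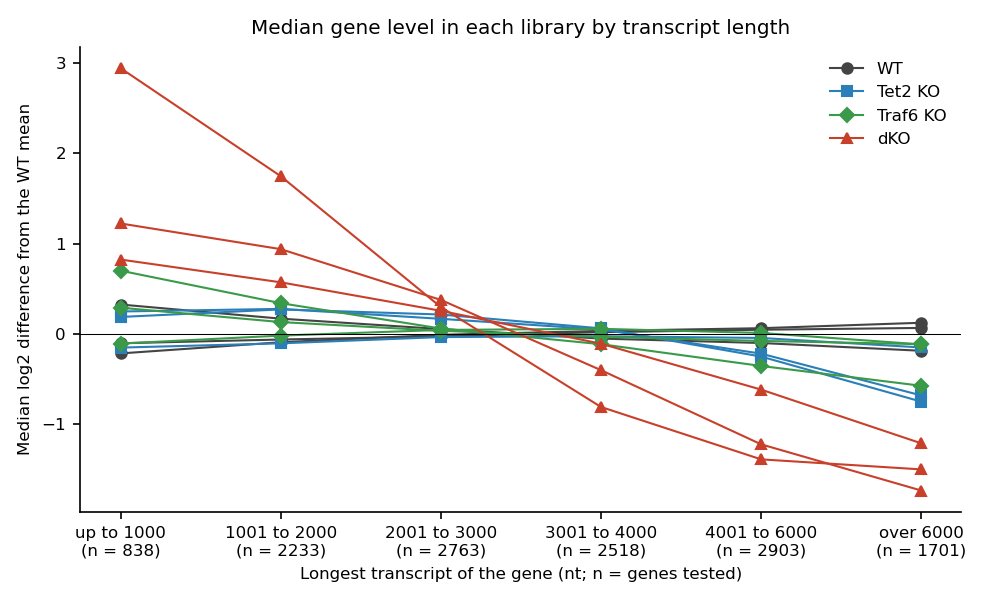
Median log2 difference from the WT mean (vertical axis) for genes grouped by transcript length in nucleotides (horizontal axis), with a line for each of the 12 libraries. The dKO libraries start between 0.82 and 2.94 for transcripts of at most 1000 nucleotides and end between -1.73 and -1.21 for transcripts over 6000 nucleotides.

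Another fit removed, in each library, the smooth trend of the values with length and GC content before the same test. It called 4045 of 12956 genes (31.2%), 2133 of them higher (16.5%) and 1912 lower (14.8%). Both fits called 1295 genes higher (10%) and 1681 lower (13%), while 35 genes passed as lower in the first and as higher in the second. The value from it is given below as the trend-removed value. It can overcorrect genes whose expressed transcript is much shorter than the longest annotated one, such as the histone gene Hist1h1d. Whether the length trend arose in the cells or in the RNA and libraries was not tested.

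Recovered read totals were 23599252 to 36807003 in WT and 22169673 to 30555015 in dKO. Library dKO 3 stood apart. Its deposited values summed to 39973900 against 28673300 and 28916100 in dKO 1 and 2, and 5.74% of that sum came from its top 10 genes, against 3.33% and 3.67%. List counts that reached 5 or more and moved by over 1.5 times without a single library are given with their list. Sex-linked genes differed between the groups. Xist, the RNA of the inactive X chromosome, was at 17, 2.28 and 0 in WT and 0.938, 1.30 and 0 in dKO, but at 3826, 1020.3 and 990.3 in Tet2 KO and 1574, 2095 and 1164 in Traf6 KO. The Y-linked gene Ddx3y was at 4065, 3648 and 3755 in WT and 3889, 2168 and 817 in dKO, but at 51.7, 0.968 and 12.9 in Tet2 KO and 2815, 2.32 and 1.78 in Traf6 KO. By these genes the WT and dKO libraries read as male and the Tet2 KO libraries and Traf6 KO 2 and 3 as female, while Traf6 KO 1 carried both signals.

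The targeted genes were read first. Tet2 (chr3:133463679-133545139, minus strand, GRCm38) had values of 525, 783 and 739.6 in the WT libraries and 326, 197 and 261 in the dKO libraries. The log2 change was -1.39 ± 0.35 (SE; adjusted p = 0.0063) with no overlap of the groups, but the trend-removed value was 0.08 (adjusted p = 0.82). Traf6 (chr2:101678429-101701669, plus strand), had 1935, 3006 and 2957 in WT and 799, 1313 and 967 in dKO, with a log2 change of -1.36 ± 0.47 (SE; adjusted p = 0.027) and a trend-removed value of -0.16 (adjusted p = 0.82). In the single knockouts Tet2 had 668, 403 and 486 in the libraries labelled Tet2 KO and Traf6 had 2474, 854 and 568 in those labelled Traf6 KO. The first library labelled Tet2 KO lay inside the WT range of Tet2, and the first labelled Traf6 KO inside the WT range of Traf6. Both transcripts are long and reads were summed over the whole gene, so the totals do not separate a deleted exon from the rest of the transcript and check the labels only in part. Within 5 Mb of Tet2, 10 of 42 tested genes rose and 4 fell, or 13 and 1 after trend removal. Around Traf6, 9 of 38 rose and 9 fell, or 3 and 4 after trend removal. Over all genes tested the shares were 23.4% higher and 28.0% lower, or 16.5% and 14.8% after trend removal.

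Neutrophil and monocyte progenitor genes formed the group with the highest share of rises among the blood cell lists. Of 36 tested members of a list of 38, 28 rose (77.8%) and the other 8 did not pass the test, with a median log2 change of 2.23. The list's median length was 1822 nucleotides. Of all genes above 1000 and up to 2000 nucleotides 55.5% rose, with a median of 1.07. After trend removal 23 of the list rose (63.9%), 22 of them in both fits, with a median of 1.54. The share was then 10.5% among all genes in that length range and 16.5% over all genes. Without dKO 3, 25 of the list rose as deposited, with a median of 1.62.

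The promoters of 3 granule genes that rose and hold the motif searched for are printed. Each sequence is the stretch just upstream of the RefSeq gene start in GRCm38.p6, 5′ to 3′ on the gene's strand, with GAGGAA, a core recognised by the myeloid factor PU.1, in capitals. Elane and Prtn3 are neighbours on chromosome 10 (chr10:79886062-79886311 and chr10:79879417-79879666, plus strand), and Mpo lies on chromosome 11 (chr11:87793534-87793783, plus strand).
Elane: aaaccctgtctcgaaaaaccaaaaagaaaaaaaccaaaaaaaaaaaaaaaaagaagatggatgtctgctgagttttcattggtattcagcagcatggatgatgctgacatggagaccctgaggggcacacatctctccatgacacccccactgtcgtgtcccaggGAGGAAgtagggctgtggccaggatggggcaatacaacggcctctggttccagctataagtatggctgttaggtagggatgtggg
Prtn3: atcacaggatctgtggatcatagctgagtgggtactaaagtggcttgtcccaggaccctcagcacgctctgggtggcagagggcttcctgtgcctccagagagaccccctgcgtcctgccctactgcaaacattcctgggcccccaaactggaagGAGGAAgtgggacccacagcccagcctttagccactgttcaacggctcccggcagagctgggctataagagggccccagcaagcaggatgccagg
Mpo: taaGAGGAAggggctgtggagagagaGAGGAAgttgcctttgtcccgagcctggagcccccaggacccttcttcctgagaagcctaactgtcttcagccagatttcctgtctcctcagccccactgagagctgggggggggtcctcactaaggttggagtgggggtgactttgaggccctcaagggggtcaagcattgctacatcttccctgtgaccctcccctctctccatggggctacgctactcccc
GAGGAA, searched on both strands in windows of the same length, was present in 14 of the 28 progenitor-list promoters in the RefSeq table (50%) and in 2345 of 9048 promoters of tested genes (25.9%). Among genes higher in both fits the share was 25.0%, and among those lower in both it was 26.9%. A match is a string of letters and not a measured binding site.

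Elane, which encodes neutrophil elastase, had 456, 81.1 and 257 in the WT libraries and 11719, 4913 and 20022 in the dKO libraries. Every dKO value was more than 10 times every WT value, and the log2 change was 5.62 ± 0.83 (SE; adjusted p = 0.00048) with a trend-removed value of 4.20 (adjusted p = 0.0022). Prtn3, the gene of proteinase 3 beside it on the chromosome, had 2528, 1604 and 2316 in WT and 14840.1, 16918 and 55385 in dKO, a log2 change of 3.51 ± 0.49 (SE; adjusted p = 0.00040) and a trend-removed value of 2.16 (adjusted p = 0.00082). Library dKO 3 was the highest for both genes, and dKO 1 and 2 alone were also above all 3 WT libraries. Ctsg, encoding the granule protease cathepsin G, had 1821, 689 and 1471 in WT and 18893, 18799 and 49911 in dKO, a log2 change of 4.41 ± 0.67 (SE; adjusted p = 0.00053). Mpo, encoding myeloperoxidase of the azurophil granules, had 15446, 12565 and 23184 in WT and 129731, 81213 and 71836 in dKO, with a log2 change of 2.46 ± 0.56 (SE; adjusted p = 0.0038) and a trend-removed value of 2.63 (adjusted p = 0.0046). For Mpo dKO 1 was the highest library and dKO 3 the lowest of the dKO group, and the groups did not overlap.

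Ly6c2, which encodes the monocyte surface antigen Ly6C, had 18.4, 12.6 and 36.5 in WT and 1149.6, 483 and 2002 in dKO, a log2 change of 5.59 ± 0.70 (SE; adjusted p = 0.00031). Hp, the gene of haptoglobin, a haemoglobin-binding protein stored in granules, had 46.1, 16.0 and 51.0 in WT and 1498, 1110.0 and 1605 in dKO, a log2 change of 5.32 ± 0.92 (SE; adjusted p = 0.00096) and a trend-removed value of 4.17 (adjusted p = 0.0051). The groups were separate for both. Plac8, a gene expressed in early myeloid and lymphoid progenitors, was abundant already in WT and rose by 2.55 ± 0.45 (SE; adjusted p = 0.0011). Some regulator and receptor genes of the same list did not pass. Irf8, a monocyte and dendritic cell regulator, had a log2 difference of 0.74 (adjusted p = 0.22), and Csf1r, the receptor for the growth factor M-CSF, of 0.70 (adjusted p = 0.33) with a trend-removed value of 1.91 (adjusted p = 0.018). Their WT and dKO values overlapped.

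**Figure D2:**
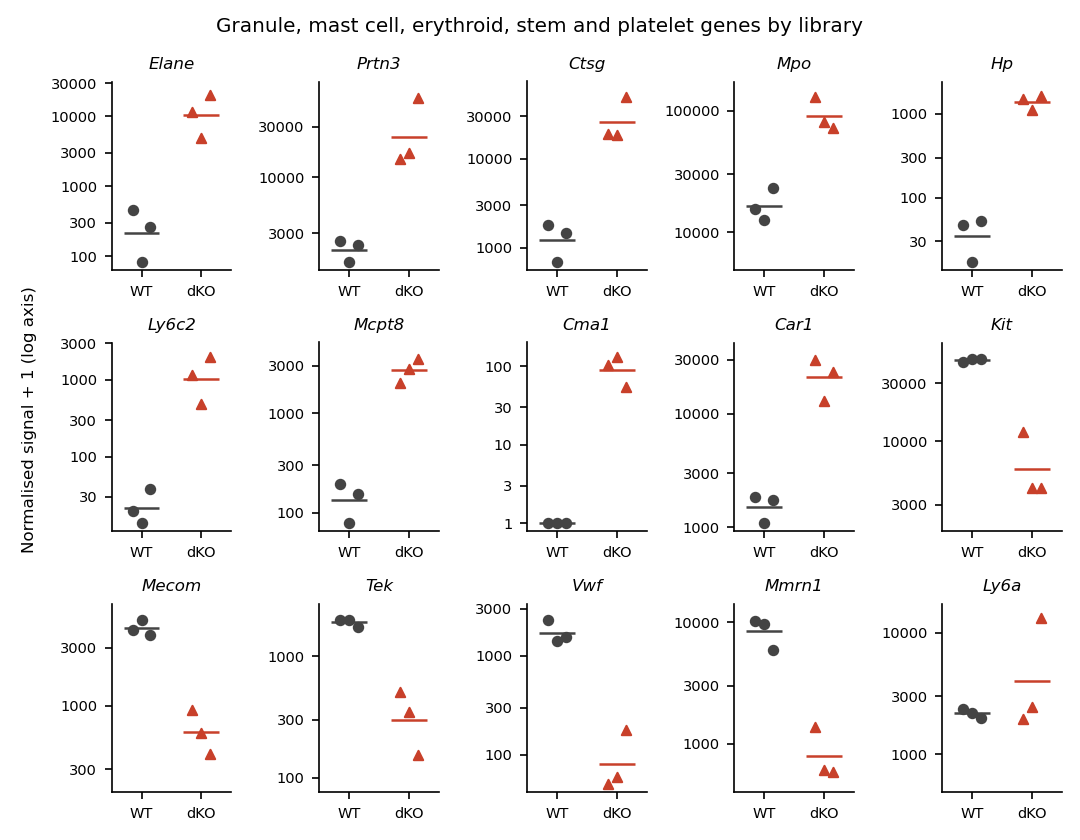
Deposited value plus 1 (vertical axis, log scale) of 15 genes in the 3 WT and 3 dKO libraries, where each point is a library and each line the geometric mean of the group. The granule genes Elane, Prtn3, Ctsg, Mpo and Hp and the genes Ly6c2, Mcpt8, Cma1 and Car1 are higher in every dKO library than in any WT library. Kit, Mecom, Tek, Vwf and Mmrn1 are lower in every dKO library, and Ly6a overlaps.

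Mature neutrophil genes did not follow the progenitor list. Of 14 tested members of a list of 20, 2 fell (14.3%, against 28.0% over all genes) and the other 12 did not pass the test. After trend removal 1 fell, with a median of -0.60, and without dKO 1, 3 rose and 3 fell. The members' summed value was 8602 to 14240 in WT and 8903 to 10550 in dKO. Padi4, an enzyme that citrullinates histones in neutrophils, was one that fell, with a log2 change of -1.08 ± 0.28 (SE; adjusted p = 0.0071). Lcn2, a secondary granule protein gene, had 136, 37.7 and 113 in WT and 117, 360.0 and 247 in dKO, with a log2 difference of 1.38 (adjusted p = 0.10). Of the list, Stfa1, Stfa2, Stfa3 and BC100530 were at 0 in all 6 libraries.

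Mast cell and basophil genes moved both ways. Of 13 tested members of a list of 20, 8 rose and 4 fell, with a median of 2.19 as deposited and 0.75 after trend removal, when 6 rose and 2 fell. Mcpt8, a basophil protease gene, had 196, 77.7 and 153 in WT and 2029, 2786 and 3553 in dKO, a log2 change of 4.35 ± 0.60 (SE; adjusted p = 0.00039) and a trend-removed value of 2.94 (adjusted p = 0.0030). Cma1, the gene of mast cell chymase, was at 0 in the 3 WT libraries and at 103, 130.4 and 53.6 in dKO, which was at least 34.0-fold higher when WT is set to the value of 3 reads per library. Cd200r3, a receptor gene of basophils and mast cells, was also at 0 in WT and at 45.0, 104 and 42.9 in dKO, at least 22.8-fold higher. The tryptase gene Tpsb2 rose by 5.28 (adjusted p = 0.0016), the IgE receptor gene Fcer1a by 3.20 (adjusted p = 0.0019) and the carboxypeptidase gene Cpa3 by 1.75 (adjusted p = 0.0015).

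The 4 mast cell and basophil members that fell included Kit and Gata2, which stem cells also express, and Slc18a2. Gata2, a stem cell and mast cell transcription factor gene, had 12155, 15893 and 12283 in WT and 5539, 4729 and 3029 in dKO, a change of -1.63 (adjusted p = 0.00041), and the amine transporter gene Slc18a2 had 9802, 7797 and 7186 in WT and 4456, 4304 and 1451 in dKO, a change of -1.43 (adjusted p = 0.0079). The summed value of the list, most of it Kit in WT, was 68940 to 73120 in WT and 20150 to 28760 in dKO. Mrgprb2 and Rgs13 were at 0 in all 6 libraries. Of other protease genes too low to be tested, Prss34 had 97.2, 4.57 and 0 in WT and 0, 1.30 and 0 in dKO. Mcpt4 was at 0 in WT and at 0, 0 and 41.1 in dKO, and Tpsab1 at 0 in WT and at 0.938, 0 and 1.79 in dKO.

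Genes of early erythroid cells rose more often than they fell. Of 36 tested, 13 rose and 2 fell, with a median of 0.70, and after trend removal 6 rose and 2 fell, with a median of 0.46. The share that rose was then 17.1%, near the background of 16.5%. Car1, an early erythroid carbonic anhydrase gene, had 1868, 1089 and 1751 in WT and 29981, 12926 and 23561 in dKO, a log2 change of 3.77 ± 0.70 (SE; adjusted p = 0.0014) and a trend-removed value of 2.56 (adjusted p = 0.017). Klf1, the erythroid transcription factor gene, changed by 1.92 (adjusted p = 0.042), with a trend-removed value of 1.09 (adjusted p = 0.26). Tspo2, a gene of late erythroid differentiation, had 26.3, 21.7 and 16.4 in WT and 309.7, 133 and 386 in dKO, a change of 3.52 (adjusted p = 0.0020). Without dKO 3, or without WT 2, the number of erythroid genes that rose was 8.

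Among 26 tested lymphoid progenitor genes 5 rose (19.2%) and 6 fell (23.1%), shares below the background, with a median of 0.45 against -0.09 over all genes. Without dKO 3, WT 2 or WT 3 the number that rose was 3, 1 or 2. Igll1, the surrogate light chain gene of early B cells, had 2.84, 4.57 and 0.962 in WT and 33.8, 18.3 and 951 in dKO, a change of 4.63 (adjusted p = 0.0091), where dKO 3 was far above the other libraries. Notch1, the receptor that directs T lineage choice, fell by 2.12 ± 0.49 (SE; adjusted p = 0.0043) as deposited and its trend-removed value was -0.21 (adjusted p = 0.68). For Foxo1, a regulator of early B cells, the sign turned, from -1.15 (adjusted p = 0.0028) to a trend-removed 0.39 (adjusted p = 0.18).

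Markers of mature lymphocytes, macrophages and stroma were read for cells that a gate could let through. Of 14 tested B, T and natural killer cell genes, 4 rose (28.6%, against 23.4% over all genes) and the other 10 did not pass the test. Without WT 2 or WT 3, 2 rose, and after trend removal 0 rose and 0 fell. The summed value of the full list of 30 was 6092 to 7587 in WT and 10560, 15730 and 80560 in dKO, with Cd3e, Cd3g and Gzma at 0 in all 6 libraries. Igkc, the immunoglobulin kappa constant gene, had 1286, 1483 and 1039 in WT and 588, 1673 and 28286 in dKO, and Nkg7, a granule gene of cytotoxic and myeloid cells, had 4565, 3418 and 3889 in WT and 7361, 10721 and 49423 in dKO. Library dKO 3 was the highest for both. Of 24 tested macrophage and dendritic cell genes 2 rose (8.33%) and 4 fell (16.7%), below the 23.4% and 28.0% over all genes. After trend removal 3 rose (12.5%) and 2 fell (8.33%), again below the 16.5% and 14.8% over all genes. Without dKO 3, 7 fell, without dKO 2, 2 fell, and without dKO 1, 5 rose. The summed value was 38090 to 43360 in WT and 37540, 32790 and 76300 in dKO. Cd74, the invariant chain gene of antigen presentation, had 9077, 8635 and 6618 in WT and 1297, 1143 and 7356 in dKO, a change of -1.86 (adjusted p = 0.010). Cd68, a lysosomal gene of macrophages, went the other way with 414, 409 and 461 in WT and 1663, 2163 and 4952 in dKO, a change of 2.61 (adjusted p = 0.00036). The complement gene C1qa had 27.7, 8.0 and 8.66 in WT and 7.51, 162 and 245 in dKO, high in dKO 2 and 3. Of 19 tested stromal and endothelial genes 8 fell (42.1%) and the other 11 did not pass the test, with a median of -1.40. The list's median length was 5423 nucleotides. Of all genes above 4000 and up to 6000 nucleotides 52.7% fell, with a median of -1.10, so the share that fell did not exceed that for its length. After trend removal 4 of the list fell and 1 rose, with a median of -0.35. The summed value was 15800 to 18210 in WT and 6910 to 9172 in dKO. The part of such cells in the results above was not tested.

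The markers of the sort itself were uneven. Kit, the gene of the c-Kit receptor used to gate LSK cells (chr5:75574916-75656722, plus strand), had 44484, 47837 and 47804 in the WT libraries and 11935, 4099 and 4105 in the dKO libraries. The 3 dKO libraries were all below WT, with a log2 change of -2.99 ± 0.39 (SE; adjusted p = 0.00033) and a trend-removed value of -1.87 (adjusted p = 0.00096). Ly6a, which encodes Sca-1, had 2339, 2205 and 1989.9 in WT and 1968, 2446 and 13218 in dKO, with a log2 difference of 0.88 (adjusted p = 0.18) in which dKO 3 alone was above WT by more than the spread of the others. Cd34, a progenitor surface antigen gene, had 39744, 37782 and 52709 in WT and 59383, 56439 and 40877 in dKO, with overlapping groups and a log2 difference of 0.26 (adjusted p = 0.29). Cd48, a surface antigen gene of multipotent progenitors that long-term stem cells lack, rose by 2.02 ± 0.31 (SE; adjusted p = 0.00055) with a trend-removed value of 0.88 (adjusted p = 0.011). Of 14 tested gate markers 1 rose and 5 fell, or 3 fell without WT 1 or without WT 2. Cd3e, a lineage marker of T cells, was at 0 in all 6 libraries.

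Haematopoietic stem cell genes fell in part. Of 57 tested members of a list of 59, 23 fell and 7 rose, with a median of -0.35. After trend removal 17 fell and 5 rose, with a median of -0.24. The number that rose was 4 without WT 2 or WT 3 and 11 without dKO 1. Relative to the WT mean, the list median was -0.69, -0.44 and 0.0025 in dKO 1, 2 and 3, or -0.64, -0.18 and 0.17 after trend removal, so the list as a whole was not lower in dKO 3. Mecom, which encodes the stem cell transcription factor EVI1, had 4226, 5099.9 and 3822 in WT and 918, 595 and 400.3 in dKO, a log2 change of -2.85 ± 0.35 (SE; adjusted p = 0.00031) and a trend-removed value of -1.76 (adjusted p = 0.00091). Tek, the gene of the angiopoietin receptor TIE2, had 1994, 1988 and 1758 in WT and 508, 349.6 and 152 in dKO, a change of -2.67 ± 0.46 (SE; adjusted p = 0.00095), and its relative Tie1 changed by -2.49 (adjusted p = 0.00031). Fgd5, a gene used to mark stem cells, had 1024, 997 and 818 in WT and 89.1, 36.5 and 96.5 in dKO, a change of -3.77 ± 0.53 (SE; adjusted p = 0.00039) and a trend-removed value of -2.19 (adjusted p = 0.0045). The WT and dKO groups were separate for all 4 of these genes. Hlf, a stem cell transcription factor gene, fell by 1.71 ± 0.24 (SE; adjusted p = 0.00037). Not every stem cell gene moved: Procr, which encodes the stem cell surface receptor EPCR, had 1736, 1346 and 1089 in WT and 963, 1723 and 4613 in dKO and a log2 difference of 0.53 (adjusted p = 0.36), and its trend-removed value was -0.44 (adjusted p = 0.28). Members that rose included Egr1 and Ifitm1, described below.

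Platelet and megakaryocyte genes fell more often than they rose. Of 33 tested, 14 fell and 3 rose, with a median of -0.84, and after trend removal 14 fell and the other 19 did not pass, again with a median of -0.84. Without WT 1 or WT 2 the number that fell was 9 or 8, and without WT 2, WT 3 or dKO 2, 0 rose. Vwf, the gene of von Willebrand factor, which marks platelet-biased stem cells and endothelium, had 2319, 1403 and 1554 in WT and 49.7, 58.7 and 179 in dKO, a change of -4.39 ± 0.50 (SE; adjusted p = 0.00029) and a trend-removed value of -2.57 (adjusted p = 0.0020). Mmrn1, the gene of the platelet protein multimerin, had 10294, 9666 and 5945 in WT and 1378, 604 and 577 in dKO, a change of -3.42 ± 0.48 (SE; adjusted p = 0.00040). F2r, the gene of a thrombin receptor, had 10201, 13287 and 10962 in WT and 2172, 1849.5 and 1648 in dKO, a change of -2.60 ± 0.22 (SE; adjusted p = 5.7e-05), and its trend-removed value of -2.45 (adjusted p = 2.4e-05) was close to it. Every dKO library was below every WT library for these 3 genes. Itgb3, a platelet integrin gene, changed by -2.83 (adjusted p = 0.00095), and Zfpm1, the gene of the GATA1 partner FOG1, by -2.65 (adjusted p = 0.00031). For Pf4, platelet factor 4, a short gene, the deposited values overlapped with 1120.4, 746 and 446 in WT and 155, 411 and 1020.5 in dKO. Its log2 difference was -0.84 (adjusted p = 0.23), but the trend-removed value was -2.56 (adjusted p = 0.0016), with separate groups.

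Immediate early genes, which are switched on within minutes of a stimulus and also during cell isolation, rose as a group, but less in dKO 1. The list median relative to the WT mean was 0.25, 1.18 and 1.40 in dKO 1, 2 and 3, or 0.37, 1.16 and 1.09 after trend removal. Of 32 tested members of a list of 36, 16 rose and 3 fell, with a median of 0.83. After trend removal 14 rose and 2 fell, with a median of 0.93, and without dKO 3 the count was 13 and 4, with a median of 0.51. Fos had 1495, 2533 and 907 in WT and 14354, 31636 and 26526 in dKO, a log2 change of 3.92 ± 0.72 (SE; adjusted p = 0.0013) and a trend-removed value of 3.35 (adjusted p = 0.0058). Fosb, a relative of Fos that is also part of the AP-1 factor, had 46.1, 78.8 and 46.2 in WT and 288, 593 and 1428 in dKO, a change of 3.48 ± 0.57 (SE; adjusted p = 0.00073). Egr1, a zinc finger factor induced by growth signals, had 946, 1618 and 935 in WT and 5478, 6465 and 6169 in dKO, a change of 2.42 ± 0.50 (SE; adjusted p = 0.0025) and a trend-removed value of 3.69 (adjusted p = 0.00082). All 3 dKO libraries were above all 3 WT libraries for these genes. Dusp1, a phosphatase gene that ends MAP kinase signalling, rose by 2.68 (adjusted p = 0.0011), Klf2, a quiescence factor gene, by 3.43 (adjusted p = 0.00077), Ier2 by 1.80 (adjusted p = 0.00051) and the AP-1 gene Junb by 2.18 (adjusted p = 0.00054).

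Type I interferon response genes divided into falls and rises. Of 55 tested, 21 fell and 8 rose, with a median of -0.46 against -0.09 over all genes. After trend removal 19 fell and 3 rose, with a median of -0.57 and a background of 14.8% lower. Without dKO 3, 24 fell and 6 rose, and with both changes 27 fell and 4 rose. The number that rose was 4 without WT 2 or WT 3 and 14 without dKO 1. Relative to the WT mean, the list median was -0.66, -0.62 and 0.04 in dKO 1, 2 and 3, or -0.61, -0.68 and 0.16 after trend removal. The list's summed value was 161400 to 167800 in WT and 140900, 160200 and 414500 in dKO, so the list as a whole was not lower in dKO 3. With libraries scaled to equal totals 26 fell and 7 rose, and the median over all genes moved to -0.34.

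Stat2 (chr10:128270559-128292849), which encodes a transcription factor that carries the interferon signal to the nucleus, had 1854, 1756 and 2036 in WT and 483, 219 and 288 in dKO, a change of -2.58 ± 0.29 (SE; adjusted p = 0.00029) and a trend-removed value of -1.64 (adjusted p = 0.00057). Oas3, which encodes an enzyme that senses double-stranded RNA, had 839, 827 and 942 in WT and 100.4, 58.7 and 89.4 in dKO, a change of -3.41 ± 0.40 (SE; adjusted p = 0.00030) and a trend-removed value of -2.18 (adjusted p = 0.00091). The groups were separate for both, and library dKO 3 lay between the other dKO libraries. Ddx58, the gene of the RNA sensor RIG-I, had 3629, 4104 and 3536 in WT and 1170.2, 942 and 959.7 in dKO, a change of -1.88 ± 0.25 (SE; adjusted p = 0.00034) and a trend-removed value of -1.41 (adjusted p = 0.00091).

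Some interferon list members rose. Ifitm1, a membrane protein gene with a short transcript that restricts viral entry, had 2521, 2175 and 2085 in WT and 6382, 8696 and 45674 in dKO, a change of 2.60 ± 0.56 (SE; adjusted p = 0.0031) and a trend-removed value of 1.10 (adjusted p = 0.0062). Ifitm3, from the same cluster, had 4069, 3443 and 3029 in WT and 4382, 6441 and 43615 in dKO, a change of 1.62 (adjusted p = 0.040), but a trend-removed value of -0.06 (adjusted p = 0.89). Ly6e, a surface protein gene, rose by 1.47 (adjusted p = 0.0099) and kept a trend-removed rise of 1.16 (adjusted p = 0.024). Isg15, a short ubiquitin-like gene, had 246, 202 and 168 in WT and 187, 308 and 1959 in dKO with a log2 difference of 1.25 (adjusted p = 0.14). For Isg15 and Ifitm3 library dKO 3 was far above the rest.

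The promoters of 2 falling interferon genes are printed with the core of the interferon response element, TTTC followed by any 2 bases and TTTC again, on either strand, in capitals. The windows are chr10:128270248-128270497 on the plus strand for Stat2 and chr5:120777660-120777909 on the minus strand for Oas3, RefSeq on GRCm38.p6, upstream of the gene start.
Stat2: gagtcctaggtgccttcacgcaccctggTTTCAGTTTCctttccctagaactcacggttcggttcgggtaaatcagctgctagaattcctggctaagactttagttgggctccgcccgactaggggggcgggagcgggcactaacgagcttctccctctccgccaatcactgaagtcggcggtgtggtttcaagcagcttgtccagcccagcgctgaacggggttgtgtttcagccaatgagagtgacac
Oas3: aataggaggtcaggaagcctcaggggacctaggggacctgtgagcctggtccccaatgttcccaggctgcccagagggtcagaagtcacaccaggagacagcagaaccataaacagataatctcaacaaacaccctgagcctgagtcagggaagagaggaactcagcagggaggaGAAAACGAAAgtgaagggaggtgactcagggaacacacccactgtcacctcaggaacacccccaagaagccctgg
The core was present in 16 of 42 interferon-list promoters in the RefSeq table (38.1%) and in 299 of 9048 promoters of tested genes (3.31%). Among genes lower in both fits the share was 3.45%.

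**Figure D3:**
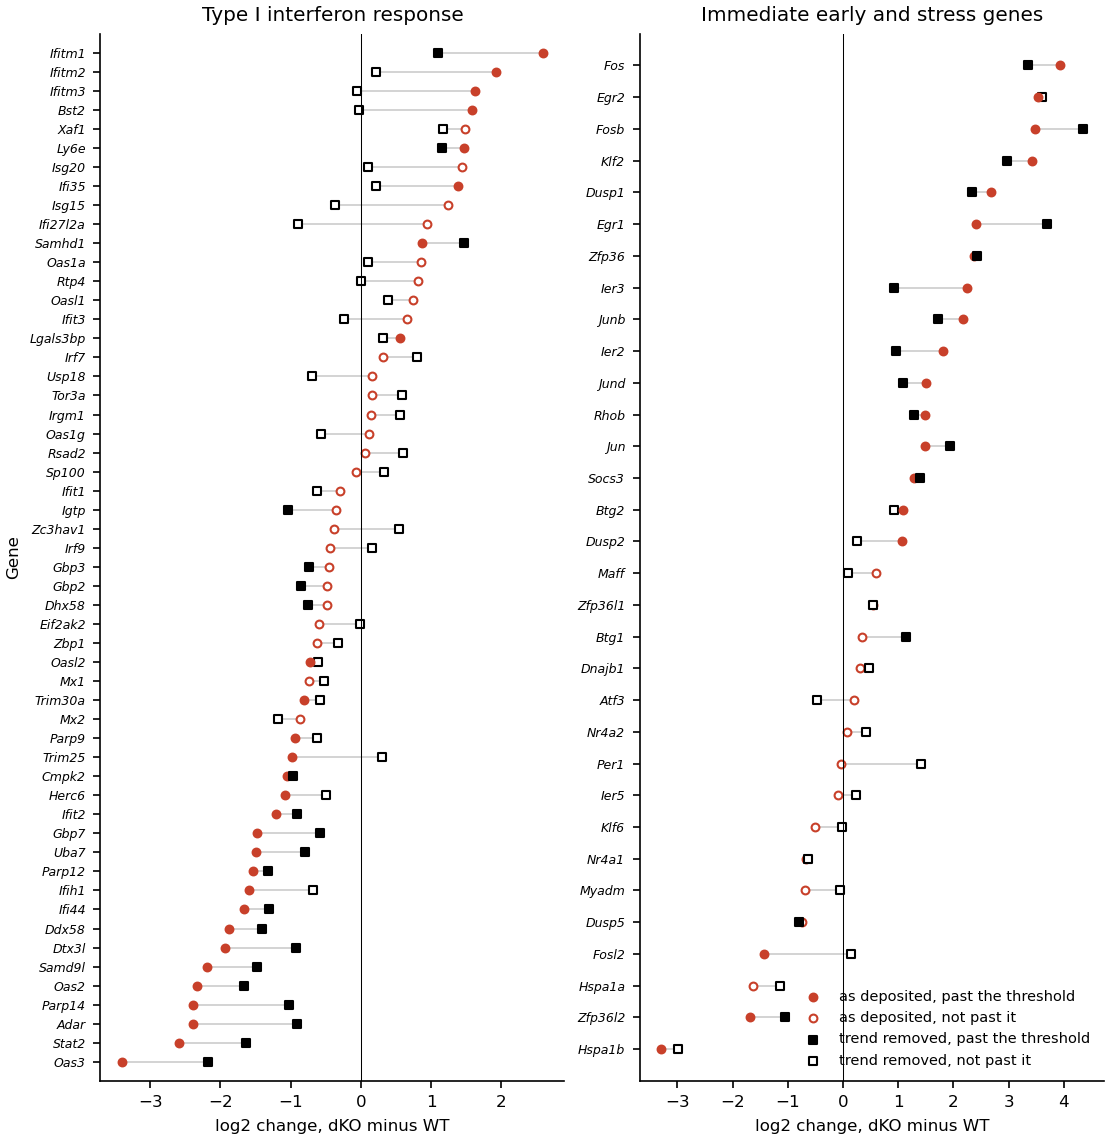
Log2 change, dKO minus WT (horizontal axis), of interferon response and immediate early genes tested, where circles are deposited values and squares trend-removed values, filled where limma's adjusted p was under 0.05. Oas3 at -3.41 and Stat2 at -2.58 lie at the low end of the interferon genes, and Fos at 3.92 at the high end of the early genes.

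Genes of Toll-like receptor and TRAF6 signalling fell more often than they rose as deposited. Of 48 tested members of a list of 53, 23 fell and 4 rose, with a median of -0.75. After trend removal 13 fell and 4 rose, with a median of -0.20. Without WT 2 or WT 3, 14 or 15 fell and 1 rose, and without WT 1 or dKO 3, 2 rose. Cd14, the co-receptor that hands lipopolysaccharide to TLR4, went against the list with 11.4, 3.43 and 10.6 in WT and 388, 462 and 570.1 in dKO, a change of 5.77 ± 0.98 (SE; adjusted p = 0.00092) and a trend-removed value of 4.83 (adjusted p = 0.0037). Tlr4 itself had 1376, 1100.2 and 885 in WT and 685, 330.0 and 155 in dKO and fell by 1.75 (adjusted p = 0.011). Of the adaptors and kinases, Myd88 changed by 0.63 (adjusted p = 0.027) with a trend-removed value of 0.38 (adjusted p = 0.098), Irak3, an inhibitor of the pathway, by -0.93 (adjusted p = 0.0062), and Chuk, which encodes the kinase IKK alpha, by -0.92 (adjusted p = 0.032). Traf3, a relative of Traf6 that restrains alternative NF-kB signalling, had 1005, 1571 and 1929 in WT and 338, 154 and 198 in dKO, a change of -2.73 ± 0.43 (SE; adjusted p = 0.00065) and a trend-removed value of -1.12 (adjusted p = 0.0084). Cyld, a deubiquitinase that removes the chains TRAF6 builds, fell by 2.07 (adjusted p = 0.0011).

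Of 40 tested NF-kB subunits and targets 8 rose (20%) and 10 fell (25%), near or below the background of 23.4% and 28.0%, with a median of -0.12. After trend removal 8 rose and 9 fell. Without WT 1 or WT 2, 5 or 4 rose. Tnfaip3, which encodes the NF-kB inhibitor A20, had 1093, 964 and 876 in WT and 194, 115 and 62.6 in dKO, a change of -3.11 ± 0.40 (SE; adjusted p = 0.00032) and a trend-removed value of -1.84 (adjusted p = 0.0034). Nfkb2, the precursor of the p52 subunit, changed by -1.59 (adjusted p = 0.0010), and Birc2, a ubiquitin ligase gene of the pathway, by -1.39 (adjusted p = 0.015). The chemokine genes rose: Ccl3 had 101, 58.3 and 97.1 in WT and 303, 566 and 1969 in dKO, a change of 3.05 ± 0.57 (SE; adjusted p = 0.0015), and Ccl4 had 145, 92.5 and 89.4 in WT and 477, 947 and 4398 in dKO, a change of 3.55 ± 0.67 (SE; adjusted p = 0.0016). Their trend-removed values were 1.55 (adjusted p = 0.012) and 1.90 (adjusted p = 0.0042). Nfkbia, the inhibitor IkB alpha, had 2553, 2324 and 2009 in WT and 1633, 2669 and 11647 in dKO, with overlapping groups.

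Myc RNA had 18778, 19732 and 19670.5 in the WT libraries and 27733, 28914 and 19627 in the dKO libraries. Libraries dKO 1 and 2 were above WT and dKO 3 was inside its range, the log2 difference was 0.37 ± 0.24 (SE; adjusted p = 0.21) and the trend-removed value was 0.03 (adjusted p = 0.95). Of 27 tested genes that regulate MYC or share its partners, 4 rose and 11 fell, with a median of -0.32. After trend removal 10 rose and 5 fell, with a median of 0.13, so the balance of the list depended on the trend. Mycn, the N-MYC gene active in stem cells, had 5099.6, 4574 and 3433 in WT and 2074, 2495 and 1009.8 in dKO, a change of -1.31 ± 0.34 (SE; adjusted p = 0.0073) and a trend-removed value of -1.31 (adjusted p = 0.0091). Mga and Mxd1, which encode factors that compete with MYC for MAX, changed by -2.29 (adjusted p = 0.00073) and -1.68 (adjusted p = 0.00091), with trend-removed values of -0.65 (adjusted p = 0.038) and -0.68 (adjusted p = 0.030). Usp28, a deubiquitinase that stabilises MYC protein, had 1706, 1795 and 1682 in WT and 865, 205 and 184 in dKO, a change of -2.43 ± 0.45 (SE; adjusted p = 0.0014).

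Of 89 MYC target genes, all of them tested, 47 rose and 11 fell, with a median of 0.65. After trend removal 27 rose and 7 fell, with a median of 0.28 and a background of 16.5% higher. With equal library totals 36 rose and 13 fell. Ranbp1, a regulator of nuclear transport, had 11236, 9434 and 9554 in WT and 22924, 28529 and 81564 in dKO, a change of 1.91 ± 0.40 (SE; adjusted p = 0.0028) and a trend-removed value of 0.60 (adjusted p = 0.025). Cdk4, the kinase that starts the cell cycle with cyclin D, had 18941, 17176 and 17343 in WT and 29486, 33748 and 49098 in dKO, a change of 1.04 ± 0.22 (SE; adjusted p = 0.0026), and the cyclin gene Ccnd2 had 6089, 8372 and 7996 in WT and 9714, 10390.1 and 43793 in dKO, a change of 1.15 (adjusted p = 0.044). Every dKO library was above every WT library for these 3 genes. Nme1, a nucleotide kinase gene, rose by 1.76 (adjusted p = 0.0060) and Exosc5, an RNA exosome subunit gene, by 2.06 (adjusted p = 0.0035). The members that fell included long genes of the same functions. Cad, which encodes the enzyme of the first steps of pyrimidine synthesis, had 4329, 7740.1 and 8425 in WT and 1327, 557 and 1149 in dKO, a change of -2.79 ± 0.41 (SE; adjusted p = 0.00049) and a trend-removed value of -1.03 (adjusted p = 0.0087), and Utp20, a ribosome assembly gene, fell by 3.15 (adjusted p = 0.00053) with a trend-removed value of -1.66 (adjusted p = 0.0038). The E-box CACGTG bound by MYC was in 19 of 79 target promoters (24.1%) and in 896 of 9048 promoters of tested genes (9.90%), and in 10.2% and 10.1% of the promoters of genes higher and lower in both fits.

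Of 89 ribosome biogenesis genes 41 rose and 21 fell, with a median of 0.57. After trend removal 32 rose and 9 fell, with a median of 0.16. Without dKO 3, 13 fell. Gnl3, encoding the nucleolar protein nucleostemin, rose by 1.33 (adjusted p = 0.00062) with a trend-removed value of 0.77 (adjusted p = 0.0075), and Nol6, a small-subunit processing gene, fell by 2.24 (adjusted p = 0.00070) with a trend-removed value of -0.93 (adjusted p = 0.011). Of 83 cytosolic ribosomal protein genes 67 rose and 1 fell, with a median of 1.83, and after trend removal 28 rose and 3 fell, with a median of 0.41. These genes are short and have many near-identical pseudogenes among which reads could be split. Rps3a had 2044, 1501 and 1454 in WT and 6865, 9017 and 21743 in dKO and Rpl3 had 2332, 1828 and 1775 in WT and 4032, 5289 and 7406 in dKO, with changes of 2.74 (adjusted p = 0.00037) and 1.46 (adjusted p = 0.0014).

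Nuclear-encoded mitochondrial genes rose nearly throughout as deposited. Of 76 mitochondrial ribosomal protein genes 68 rose and the other 8 did not pass, with a median of 1.60, and after trend removal 40 rose, with a median of 0.63. Mrpl19 changed by 1.41 (adjusted p = 0.0013), with a trend-removed value of 2.39 (adjusted p = 0.00088). Of 78 respiratory chain and ATP synthase genes 71 rose, with a median of 1.80, and after trend removal 27 rose, with a median of 0.44. Sdhd, an anchor subunit gene of complex II, had 9181, 6250.3 and 6180.5 in WT and 14914, 19434 and 28924 in dKO, a change of 1.52 ± 0.29 (SE; adjusted p = 0.0017), and Ndufa10, of complex I, rose by 1.70 (adjusted p = 0.0013) with a trend-removed value of 1.06 (adjusted p = 0.0038). Of 48 proteasome genes 41 rose and 1 fell, with a median of 1.39, and 20 rose after trend removal. Psmd14, the deubiquitinase subunit gene of the proteasome lid, had 8468, 5807 and 5903 in WT and 13386, 17371 and 18159.7 in dKO, a change of 1.29 ± 0.24 (SE; adjusted p = 0.0013).

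Of 33 purine and pyrimidine synthesis genes 16 rose and 1 fell, and after trend removal 10 rose and 1 fell. Without dKO 1, 14 rose and 7 fell. Of 24 glycolysis genes 8 rose and 3 fell, and after trend removal 4 rose (16.7%, at the background of 16.5%). With equal library totals 6 rose and 6 fell, and without dKO 1, 6 fell. The glycolysis genes called included Ldha, lactate dehydrogenase A, which changed by 1.16 (adjusted p = 0.0012) with a trend-removed value of 0.34 (adjusted p = 0.21), and Hk1, the first kinase of the pathway, which fell by 1.53 (adjusted p = 0.0028). Of 34 cholesterol and fatty acid synthesis genes 15 fell and 4 rose, with a median of -0.53, and 8 falling and 6 rising after trend removal. Fasn, fatty acid synthase, had 3774, 6599.9 and 7398 in WT and 955, 550.4 and 693 in dKO, a change of -2.99 ± 0.41 (SE; adjusted p = 0.00036) and a trend-removed value of -0.99 (adjusted p = 0.010).

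**Figure D4:**
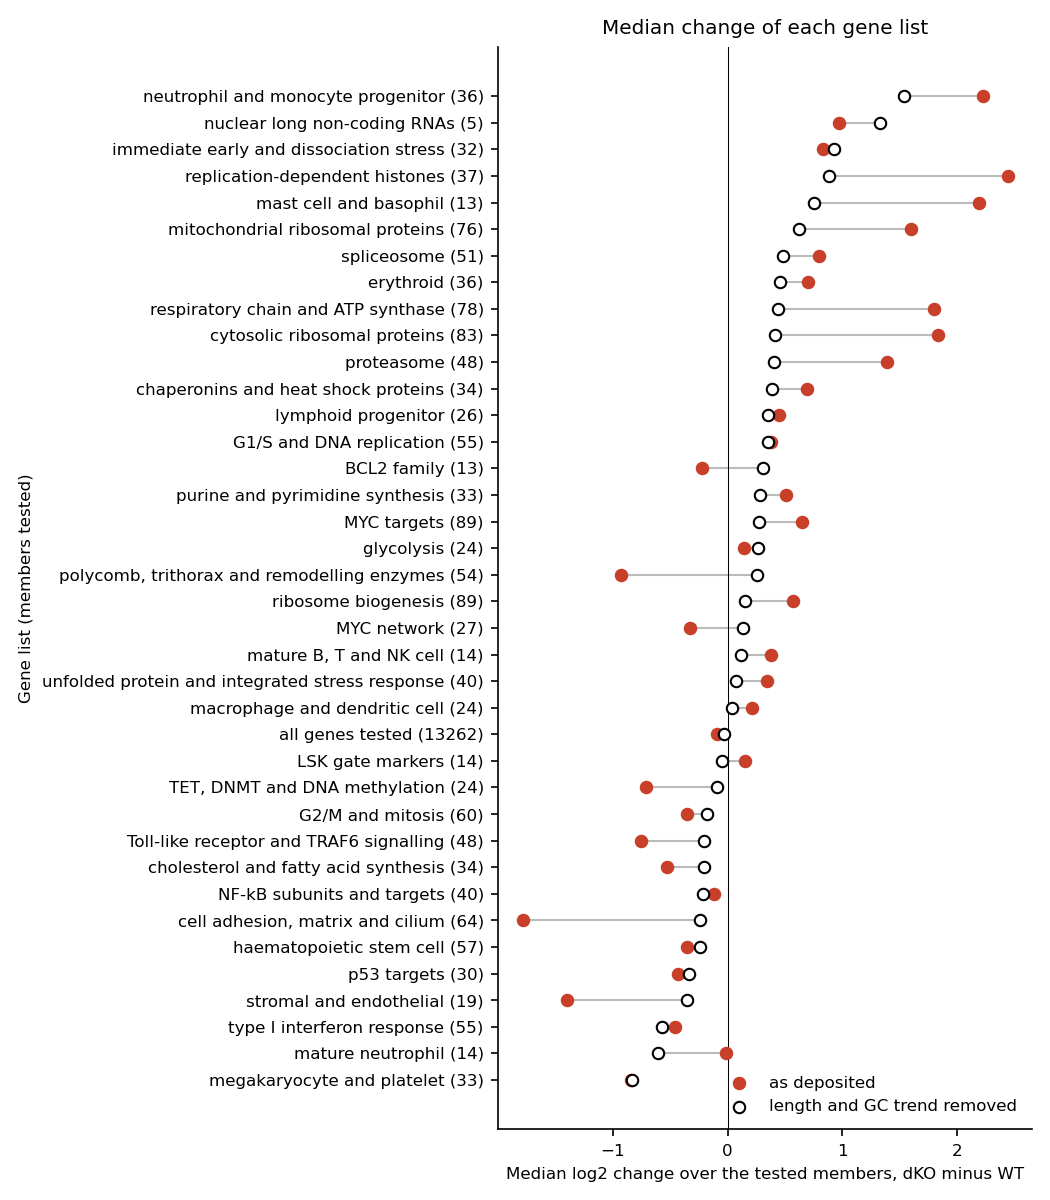
Median log2 change, dKO minus WT (horizontal axis), of the tested genes in each of 37 lists and of all genes tested, in the deposited values and after trend removal. The progenitor list stays high at 2.23 and 1.54, the interferon list low at -0.46 and -0.57, and the respiratory chain list moves from 1.80 to 0.44.

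Of 34 chaperonin and heat shock protein genes 19 rose and 2 fell, with a median of 0.69, and 9 rose after trend removal. Unfolded protein and integrated stress response genes numbered 40, of which 14 rose and 7 fell, with a median of 0.34 and a trend-removed median of 0.07. Pdia6, which encodes a disulphide isomerase of the endoplasmic reticulum, changed by 1.22 (adjusted p = 0.00071) and the stress kinase gene Ern1 by -2.46 (adjusted p = 0.00057). Of 51 spliceosome genes 29 rose and 8 fell, with a median of 0.79, and 19 rose and 3 fell after trend removal. The number that fell was 5 without dKO 2, WT 2 or WT 3 and 14 without dKO 1. Prpf8, the catalytic centre scaffold of the spliceosome, was a long gene that fell by 1.65 (adjusted p = 0.0012), with a trend-removed value of -0.06 (adjusted p = 0.82).

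Writers and erasers of DNA methylation fell as deposited more often than they rose. Of 24 tested members of a list of 27, 12 fell and 3 rose, with a median of -0.71, whereas after trend removal 2 fell and 2 rose, with a median of -0.10. Without WT 2, 7 fell. Dnmt1, the maintenance methyltransferase gene, had 12339.9, 20135 and 22443 in WT and 7182, 2378 and 4245 in dKO, a change of -2.09 ± 0.36 (SE; adjusted p = 0.0010) and a trend-removed value of -0.59 (adjusted p = 0.070). The sign turned for others. Dnmt3a changed from -1.25 (adjusted p = 0.0024) to a trend-removed 0.52 (adjusted p = 0.13), Tet1 from -1.46 (adjusted p = 0.0092) to 0.25 (adjusted p = 0.52), and Tet3, a relative of Tet2 with the same activity, from -1.04 (adjusted p = 0.020) to 0.89 (adjusted p = 0.017). Ogt, a glycosyltransferase that binds TET proteins, fell by 1.76 (adjusted p = 0.0015) with a trend-removed value of -0.86 (adjusted p = 0.039). Idh2, which makes the TET cofactor 2-oxoglutarate, had 13639.8, 13094 and 14470.1 in WT and 24729, 28254 and 38094 in dKO, a change of 1.12 ± 0.22 (SE; adjusted p = 0.0019) and a trend-removed value of 0.37 (adjusted p = 0.074).

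Of 54 polycomb, trithorax and remodelling genes 31 fell and 3 rose, with a median of -0.93, and after trend removal 11 fell and 9 rose, with a median of 0.26. The 57.4% that fell as deposited lay below the 63.6% of all genes over 6000 nucleotides. After trend removal 20.4% were lower and 16.7% higher, near or below the 20.75% and 20.2% of genes of that length. Ep300, a histone acetyltransferase gene, had 1540.4, 2277 and 2204 in WT and 329, 149 and 439.6 in dKO, a change of -2.82 ± 0.37 (SE; adjusted p = 0.00033) and a trend-removed value of -1.10 (adjusted p = 0.0057). Asxl1, often mutated in the same leukaemias as Tet2, fell by 1.57 (adjusted p = 0.0035) with a trend-removed value of -0.01 (adjusted p = 0.98). Ezh2, the polycomb methyltransferase gene, had a log2 difference of 0.34 (adjusted p = 0.19).

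Cell cycle genes were read by phase. Of 55 genes of the G1/S transition and DNA replication 23 rose and 7 fell, with a median of 0.38, and after trend removal 17 rose and the other 38 did not pass, with a median of 0.35. The number that fell without a single library was between 3 (without WT 2 or WT 3) and 13 (without dKO 1). Rfc4, a clamp loader gene, had 3264, 2425 and 2606 in WT and 6036, 6915 and 10001 in dKO, a change of 1.45 ± 0.27 (SE; adjusted p = 0.0014). Of 60 G2/M and mitosis genes 14 rose (23.3%) and 17 fell (28.3%), at the background, with a median of -0.35 and a trend-removed median of -0.18. After trend removal 10 rose (16.7%) and 9 fell (15%), again at the background. Without WT 2, 9 rose, and without dKO 1, 29 fell. Cdk1, the mitotic kinase gene, had 3622, 3067 and 2877 in WT and 6707, 5819 and 14462 in dKO, a change of 1.38 ± 0.32 (SE; adjusted p = 0.0041) and a trend-removed value of 2.14 (adjusted p = 0.0020). The proliferation markers Mki67 and Top2a, with long transcripts, changed by -1.64 (adjusted p = 0.0068) and -1.66 (adjusted p = 0.0032) as deposited and had trend-removed values of -0.03 (adjusted p = 0.95) and -0.79 (adjusted p = 0.035). Replication-dependent histone genes, which are short and near-identical copies, rose in 31 of 37 tested, with a median of 2.44, and in 9 after trend removal, with a median of 0.88. Without dKO 3, 20 rose.

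Of 30 p53 target genes 4 rose and 8 fell (26.7%, near the background), with a median of -0.43. Without WT 2, 5 fell, and without WT 2, WT 3 or dKO 3, 2 rose. Cdkn1a, the gene of the cell cycle inhibitor p21, had 84.4, 199 and 274 in WT and 1272, 1513 and 981 in dKO, a change of 2.88 ± 0.50 (SE; adjusted p = 0.0010) and a trend-removed value of 2.36 (adjusted p = 0.0051). The p53 targets Trp53inp1 and Apaf1, both linked to cell death, changed by -2.04 (adjusted p = 0.00055) and -2.40 (adjusted p = 0.00064). Of 13 tested BCL2 family genes 4 rose (30.8%), 1 fell and 8 did not pass, with a median of -0.22. After trend removal 3 rose (23.1%) and 1 fell, with a median of 0.31. The killer gene Bax changed by 1.56 (adjusted p = 0.011) with a trend-removed value of 0.36 (adjusted p = 0.21). Of 64 tested genes of adhesion, matrix and the cilium 30 fell and 2 rose, with a median of -1.78, and after trend removal 10 fell and 5 rose, with a median of -0.24. The shares that fell, 46.9% and 15.6%, lay below the 63.6% and 20.75% of all genes over 6000 nucleotides. Itga5, the fibronectin receptor subunit gene, changed by -2.39 (adjusted p = 0.00032) with a trend-removed value of -1.15 (adjusted p = 0.0018), and the intraflagellar transport gene Ift172 by -2.63 (adjusted p = 0.00033) with -1.26 (adjusted p = 0.0032). Of 5 nuclear non-coding RNAs tested 2 rose, and Malat1 had 11315, 4993 and 4909 in WT and 4389, 9816 and 48433 in dKO, a log2 difference of 0.97 (adjusted p = 0.32).

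Genes named for the size of their change had a higher group mean of at least 50 and separate groups, and predicted genes, genes known by a clone name, pseudogenes and receptor segments were left out. Among these the largest rise was that of Akr1e1, an aldo-keto reductase gene, with 22.0, 57.1 and 10.6 in WT and 3055, 4966 and 7192 in dKO, a log2 change of 7.58 ± 0.48 (SE; adjusted p = 4.4e-06) and a trend-removed value of 7.73 (adjusted p = 3.9e-06). After it came Cma1, Sfrp4, Cd200r3, Cd14, Elane, Ly6c2, Hp, Tpsb2 and the histone gene Hist1h2ai. Of the genes left out, 2610035D17Rik, a long non-coding RNA gene named here after its values were seen, had 6.39, 1.14 and 1.92 in WT and 772, 840.0 and 2030.3 in dKO and a larger change of 8.26 (adjusted p = 4.4e-06). Sfrp4, a secreted inhibitor of WNT signals, was at 0 in WT and at 132, 69.1 and 35.7 in dKO, at least 28.1-fold higher. The largest fall by the same rule was that of H2-Q1, a non-classical class I histocompatibility gene, with 216, 199.9 and 188 in WT and 0.938, 1.30 and 1.79 in dKO and a fitted change of -6.44 ± 0.82 (SE; adjusted p = 0.00031) that depends on the pseudocount. It belongs to a family of near-identical copies among which reads could be split. It was followed by Evc2, Mpdz, Arhgef16, Clip4, Thsd4, Myo1e, Gdpd3, Robo1 and Evc. Evc and Evc2 are neighbouring genes of a ciliary complex, and had 65.3, 318 and 44.2 in WT and 4.69, 0 and 0 in dKO and 201, 378 and 193 in WT and 8.45, 0 and 1.79 in dKO. Robo1, a guidance receptor gene, was at 44.7, 96.0 and 37.5 in WT and at 0 in dKO, at least 14.7-fold lower. Myo1e, an unconventional myosin gene, had 396, 372 and 403 in WT and 8.45, 1.30 and 14.3 in dKO, with WT values within a narrow range and a change of -5.82 ± 0.62 (SE; adjusted p = 0.00027).

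Genes that ranked high in both fits added Slc4a8, Slamf6, Rnf17, Trat1 and Ms4a4b to the rises and Plscr2, H2-T3, Apol10b, H2-Q2 and H2-Bl to the falls. Slc4a8, a bicarbonate transporter gene with a long transcript, had 39.0, 44.6 and 48.1 in WT and 429.8, 591 and 1142 in dKO, a change of 3.89 ± 0.48 (SE; adjusted p = 0.00031) and a trend-removed value of 5.77 (adjusted p = 0.00015). Slamf6, a lymphocyte receptor gene, had 3.55, 8.0 and 9.62 in WT and 107, 190.4 and 243 in dKO, a change of 4.50 ± 0.60 (SE; adjusted p = 0.00033) and a trend-removed value of 5.48 (adjusted p = 0.00057). Both were higher in every dKO library than in any WT library. Plscr2 had 417, 259 and 215 in WT and 0.938, 1.30 and 94.7 in dKO and Apol10b 109, 173 and 56.7 in WT and 0, 0 and 21.4 in dKO, where dKO 3 was above the other dKO libraries and below WT.

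The dKO libraries were then set beside the single knockouts. Against Tet2 KO 5027 genes differed (37.9%) and against Traf6 KO 5409 (40.8%), or 2223 (17.2%) and 2718 (21.0%) after trend removal. The dKO and Tet2 KO libraries differed in sex by their Xist and Ddx3y values, as did dKO and Traf6 KO 2 and 3, so sex and genotype cannot be told apart in these comparisons or in the interaction below. Without Tet2 KO library 1 the count against Tet2 KO was 968. Without Traf6 KO library 1, Traf6 KO library 3 or dKO 3, the count against Traf6 KO was 2388, 2120 or 3171. Tet2 KO and Traf6 KO differed from WT at 54 (0.407%) and 38 (0.287%) genes. These comparisons share libraries, so their counts are not independent. The number of genes for which dKO was called higher than all 3 other groups was 1648, and 2146 were called lower than all 3, or 781 and 603 after trend removal. Of the 36 progenitor genes 19 were higher and 1 lower in dKO than in Tet2 KO, against backgrounds of 16.8% and 21.1%, and 21 were higher than in Traf6 KO, against 18.7%. The median log2 differences were 1.58 and 1.43. After trend removal 11 were higher than in Tet2 KO and 10 than in Traf6 KO, with medians of 0.89 and 0.91. Mpo did not pass against Tet2 KO (0.79, adjusted p = 0.27) or Traf6 KO (1.28, adjusted p = 0.078).

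Elane had 1529, 1753 and 6435 in Tet2 KO and 616, 5502 and 2261 in Traf6 KO. Its log2 change from WT was 3.60 (adjusted p = 0.095) in Tet2 KO and 3.21 (adjusted p = 0.21) in Traf6 KO, and dKO minus each of them was 2.02 (adjusted p = 0.069) and 2.41 (adjusted p = 0.035). Both single knockouts lay between WT and dKO in mean, and neither passed the test against WT. Kit had 51517, 24029 and 28639 in Tet2 KO and 56213, 32355 and 39911 in Traf6 KO. In both groups library 1 was above every WT library, and libraries 2 and 3 were below every WT library. For Kit, dKO minus Tet2 KO and dKO minus Traf6 KO were -2.49 (adjusted p = 0.0050) and -2.83 (adjusted p = 0.0018). Fos had 7362, 2117 and 682 in Tet2 KO and 668, 1925 and 556 in Traf6 KO, and the differences from dKO were 3.38 (adjusted p = 0.0085) and 4.68 (adjusted p = 0.0020). Stat2 had 1576, 1267 and 1543 and 1344, 964 and 1362, and the differences from dKO were -2.22 (adjusted p = 0.0025) and -1.95 (adjusted p = 0.0020).

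Some basophil and mast cell genes were high in Traf6 KO too, where 2 of the 13 tested rose against WT, with a background of 0.0754%. Mcpt8 had 129, 133 and 165 in Tet2 KO and 327, 2809.7 and 808 in Traf6 KO, with a log2 difference of 2.76 (adjusted p = 0.11) from WT in the latter. Between dKO and Traf6 KO the difference was 1.58 (adjusted p = 0.051), and between dKO and Tet2 KO it was 4.26 (adjusted p = 0.0038). Cma1 had 252, 389 and 381 in Traf6 KO, above the 103, 130.4 and 53.6 of dKO, and was 0, 0 and 0 in Tet2 KO. Of the 13 mast cell and basophil genes tested, 7 were higher and 2 lower in dKO than in Tet2 KO, and 1 was higher and 4 lower than in Traf6 KO, against backgrounds of 18.7% and 22.1%. For Vwf the lower single knockout was the other, with 254, 87.1 and 191 in Tet2 KO and 1314, 849 and 889 in Traf6 KO, and log2 differences from WT of -3.40 (adjusted p = 0.0064) and -0.78 (adjusted p = 0.75).

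**Figure D5:**
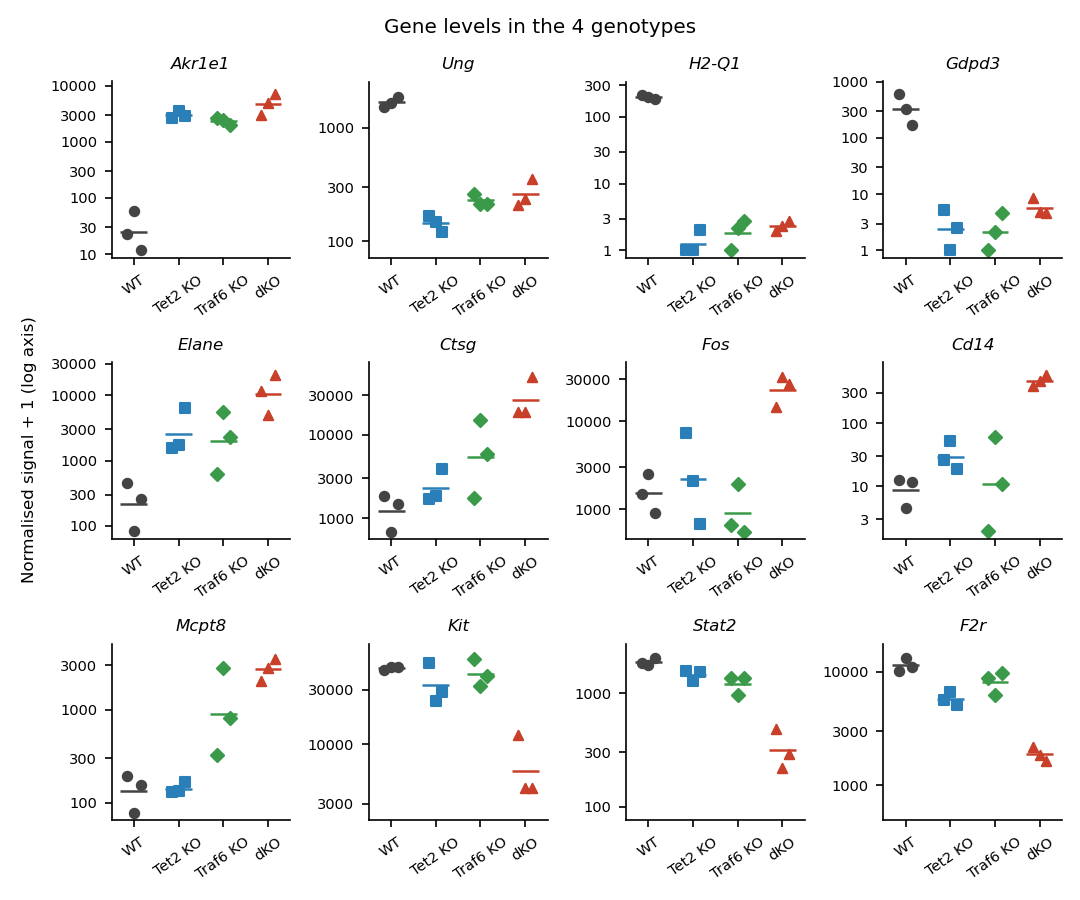
Deposited value plus 1 (vertical axis, log scale) of 12 genes in each of the 12 libraries, grouped as WT, Tet2 KO, Traf6 KO and dKO (horizontal axis), with a point per library and a line at each geometric mean. Akr1e1 is high and Ung, H2-Q1 and Gdpd3 are low in all 3 mutant groups, while Kit and Stat2 are lowest, and Fos and Cd14 highest, in dKO.

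The interaction contrast asks whether the dKO change differs from the sum of the 2 single-knockout changes on the log2 scale. It was called for 30 genes (0.226%), 16 of them positive (0.121%) and 14 negative (0.106%), and for 24 after trend removal (0.185%). Without dKO 1 the count was 2607, and without WT 1, WT 2, WT 3, Tet2 KO 1 or Traf6 KO 3 it was 14, 13, 16, 19 or 19. For 16 of the 30 its sign was opposite to that of dKO minus WT. Genes called in all 3 mutant groups against WT in the same direction numbered 23, with 4 higher and 19 lower, and the interaction was called for 14 of them. Ung, which encodes uracil-DNA glycosylase, a base excision repair enzyme, had 1521, 1653 and 1860.1 in WT, 168, 146 and 120.1 in Tet2 KO, 261, 213 and 215 in Traf6 KO, and 209, 235 and 354 with both genes knocked out. All 9 mutant libraries were below all 3 WT libraries, with changes of -3.54 (adjusted p = 6.8e-05), -2.86 (adjusted p = 0.00038) and -2.69 (adjusted p = 0.00029) in the 3 mutant groups. Akr1e1 had 2649.5, 3575 and 2946 in Tet2 KO and 2672, 2467 and 2010.3 in Traf6 KO, where WT did not exceed 57.1. Several of the 23 genes belong to the class I histocompatibility region on chromosome 17, whose members are near-identical copies.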

How the data were processed

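Total RNA of LSK cells was sequenced from SMART-Seq v4 low-input libraries, per the labels' protocols, a method that does not mark strand. The submitters' processing notes list, without versions, the builds mm10 and GRCm38 and the tools STAR, featureCounts, bcl2fastq and DESeq2. The deposited values are a normalised signal: the authors scaled the reads of each gene by a library-wide factor. Dividing by the smallest step gave whole reads for 100% of values, within 1e-06, and hence totals per library. These limit the precision.

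Groups were taken from the labels. Groups were tested with limma 3.58.1 in R 4.3.3, with trend and robust settings, on log2(value + 1) with 4 groups over 12 libraries and Benjamini-Hochberg adjustment at 0.05. On the recovered counts, deposited by the authors only in scaled form, edgeR 4.0.16 (quasi-likelihood, TMM) called 3210 genes higher and 3489 lower, and DESeq2 1.42.0 called 3783 and 3661. The length and GC trend was removed per library by loess with a span of 0.3, using the longest GENCODE M21 transcript. Of 37187 genes, 28387 were matched to it by symbol, 2092 through a synonym and 6708 not, and 97.7% of the tested genes had a length. Fits were tested on simulated data.

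Gene names printed were the 10 largest rises and falls with separate groups and a higher group mean of 50 or more, leaving out predicted and clone-named genes, pseudogenes and receptor segments, the same over both fits, the 3 strongest genes of each list and the 3 most abundant markers of other cells. A further 50 genes were chosen after their values were seen, and some genes are not reported here. Members and lists were chosen with earlier results of these data known. A floor of 3 reads per library was used for folds against 0. The floors and fits cover counting error and library spread only. Alternatives were other pseudocounts, filters, scalings, tools, a replicate block and leaving out single libraries.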

Additional observations from a re-analysis of the deposited data

Results flagged for a closer look

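Each of 6 named genes differed between the genotypes in a way that the single changes do not add up to, by limma's interaction contrast. Its log2 value was -5.91 for Akr1e1, -8.59 for 2610035D17Rik, 7.67 for H2-Q1, 8.51 for Gdpd3, 4.23 for H2-Q2 and 3.71 for Ung, and each passed the adjusted threshold. In all 6 the sign was opposite to that of the dKO change, since each gene was already shifted in both single knockouts by about as much as in dKO. 2610035D17Rik, a non-coding RNA gene, had 6.39, 1.14 and 1.92 in WT, 1802, 2956 and 1897 in Tet2 KO, 926, 404 and 929 in Traf6 KO, and in dKO 772, 840.0 and 2030.3. Gdpd3, a phosphodiesterase gene, had 606, 321 and 168 in WT, 4.22, 0 and 1.55 in Tet2 KO, 0, 1.16 and 3.55 in Traf6 KO, and in dKO 7.51, 3.91 and 3.57. H2-Q1 had 216, 199.9 and 188 in WT, 0, 0 and 1.04 in Tet2 KO, 0, 1.16 and 1.78 in Traf6 KO, and in dKO 0.938, 1.30 and 1.79. H2-Q2, from the same histocompatibility cluster, had 579.7, 496 and 527 in WT and 17.8, 31.3 and 75.1 in dKO. WT differs from all 3 mutant groups together in these genes, and what else may separate WT from the mutant groups was not tested. By Xist and Ddx3y, Tet2 KO and most Traf6 KO libraries also differ in sex from WT and dKO.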

How the results depend on the processing

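With the length and GC trend removed 4045 genes passed in dKO against WT (1912 lower), with a replicate block as well 3889 (2067 higher, 1822 lower), and with the trend removed and without dKO 3, 3546 (1963 higher, 1583 lower), against 6812. Leaving out 1 library at a time gave 4780 to 7768 genes, 2015 to 3586 higher and 2765 to 4182 lower. Against Tet2 KO the count was 2223 with the trend removed and 968 to 6724 over single libraries left out, and against Traf6 KO 2718 and 2120 to 6965. The interaction count was 232 by DESeq2, 26 by edgeR and 13 to 2607 over single libraries left out. The causes of these shifts were not tested. A replicate block alone left 2982 genes higher and 3639 lower, and same-numbered WT and dKO libraries deviated from their group means with correlations of -0.245, -0.038 and -0.205. Deviations within groups of 3 are tied to each other, and the length trend was left in these values. The correlations therefore cannot decide whether the numbers pair the samples.

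Of 187 named genes 169 were called. Of those, 132 kept their call and direction with the trend removed, 30 lost the call and 7 turned sign. Under each other single alternative at least 154 did, the lowest where the filter of 100 dropped genes. Log2 changes that turned sign were, with the trend removed, with the block added and without dKO 3, for Tet2 0.080, 0.080 and 0.075, Foxo1 0.39, 0.39 and 0.46, Csf3r 0.031, 0.031 and 0.35, Ngp -0.60, -0.60 and -0.46, H2-Ab1 -0.85, -0.85 and -1.06, Igkc -0.48, -0.48 and -1.41, Pdgfrb 0.0087, 0.0087 and 0.33, Ifitm3 -0.059, -0.059 and -0.42, Ly6a -0.51, -0.51 and -0.87, Procr -0.44, -0.44 and -0.75, Dnmt3a 0.52, 0.52 and 0.67, Tet1 0.25, 0.25 and 0.012, Tet3 0.89, 0.89 and 0.90, Nfkbia -0.29, -0.29 and -0.79, and Isg15 -0.38, -0.38 and -0.75. With the trend removed and without dKO 3 Itgam was 0.060 and Asxl1 0.29. Over single libraries left out, H2-Ab1 ranged from -0.29 to 0.88, Igkc from -0.34 to 2.45, Procr from -0.084 to 1.05 and Nfkbia from -0.13 to 1.29, each lowest without dKO 3, and with equal library totals Ctsc was -0.10. List medians turned sign for 4 of 37 lists with the trend removed and for 3 with equal totals. Single genes near 10 deposited units rest on few reads.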
